A study of Mus musculus with 23 samples.

Results

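The dual-specificity MAP kinase phosphatases were followed by RNA-seq in primary mouse embryonic fibroblasts (MEFs), connective tissue cells taken from embryos and grown in serum-containing medium. The family was taken as the 10 classical members Dusp1, Dusp2, Dusp4, Dusp5, Dusp6, Dusp7, Dusp8, Dusp9, Dusp10 and Dusp16, chosen by gene symbol among the 55487 genes of the count table. All 10 were present, and 9 passed the filter on low counts and entered the tests. Dusp2 did not pass it. The MEFs, all of the FVB/NJ strain, carried 1 of 4 homozygous forms of the glucocorticoid receptor (GR), the ligand-activated transcription factor encoded by Nr3c1. These were the unmodified receptor (GRwt/wt), a receptor with 1 amino acid replaced where the DNA-binding domains meet in the dimer (GRD/D), one with 1 amino acid replaced in the part that binds ligand (GRL/L), and one with both replacements on the same molecule (GRD+L/D+L). Cells were exposed for 5 h to 10 nM of the synthetic glucocorticoid dexamethasone (Dex) or to its solvent (vehicle). There were 3 libraries per genotype and treatment, except GRD/D vehicle with 2, which gave 23 libraries. Per the study, each culture of a genotype came from a different mouse, as stated for a run at a higher Dex dose whose setup was used again here. The ligand-binding replacement, alone or with the older DNA-binding one, had been introduced by gene editing in zygotes.

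MAP kinases (ERK, JNK and p38) are switched on when a MAP kinase kinase phosphorylates a threonine and a tyrosine in their activation loop. The DUSP phosphatases of this family remove both phosphates and so switch the kinases off. Many of them are themselves transcribed in response to MAP kinase activity, which makes them part of a negative feedback loop. Dusp1, also called MKP-1, is in addition a well known glucocorticoid-induced gene and is regarded as one route by which glucocorticoids dampen inflammatory p38 and JNK signalling. By location and substrate the family falls into inducible nuclear enzymes (Dusp1, Dusp2, Dusp4, Dusp5), cytoplasmic ERK-selective enzymes (Dusp6, Dusp7, Dusp9) and enzymes that prefer JNK and p38 (Dusp8, Dusp10, Dusp16).

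The libraries held 16452539 to 23117080 counted reads. Summed levels of 9 fibroblast markers ranged from 39795 to 64340 CPM (counts scaled to the TMM effective library size), so the cells carried the markers of their label in every library. A pair of vehicle libraries of the GRwt/wt group stood apart, and 1 Dex library of that group shared a feature with one of them. The library labelled GRwt/wt vehicle replicate 1 had a highest Spearman correlation of 0.916 with any other library, against at least 0.973 for the other 22. Of all 23 libraries it had the highest levels of Dusp7, Dusp8, Dusp9 and Dusp10 and the lowest level of Dusp16. Its Nr3c1 level, the gene that carries the genotype, was 4.08 CPM, against 44.5 to 265 CPM in the other 22, and the lowest of those 22 was GRwt/wt Dex replicate 1. The summed level of 4 skeletal muscle markers, of which 1 passed the filter, was 210 CPM in GRwt/wt vehicle replicate 1 and 140 CPM in GRwt/wt Dex replicate 1, against 1.61 to 19.5 CPM in the other 21. These sums rest on few genes, with 3 of the 4 markers at 0 in that vehicle library and 2 of the 4 at 0 in that Dex library. GRwt/wt vehicle replicate 3 held a summed level of 4871 CPM for 10 macrophage markers, against 18.9 and 41.4 CPM in the other GRwt/wt vehicle libraries. The macrophage markers also differed between genotypes, with 17.3 to 98.5 CPM in GRwt/wt Dex, 270 to 953 CPM in GRD/D vehicle, 262 to 1664 CPM in GRD/D Dex, 296 to 731 CPM over the GRL/L libraries and 8.10 to 81.6 CPM over the GRD+L/D+L libraries. No macrophage marker was at 0 in every library, and the part of macrophages or muscle cells in the results was not tested. In such bulk samples, fewer cells of a type and less RNA per cell cannot be told apart. Each comparison of the members with GRwt/wt vehicle is given with and without both libraries where the call changed. For the pathway lists this was done only in part.

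The genes lie on 10 chromosomes of the GRCm38 build. Among the nuclear enzymes, Dusp1 (ENSMUSG00000024190) spans bases 26505590 to 26562128 of chromosome 17 on the minus strand. Dusp2 (ENSMUSG00000027368) spans 127336159 to 127338376 of chromosome 2, Dusp4 (ENSMUSG00000031530) 34807297 to 34819894 of chromosome 8, and Dusp5 (ENSMUSG00000034765) 53529109 to 53542431 of chromosome 19, each on the plus strand. The ERK-selective genes are also on plus strands, Dusp6 (ENSMUSG00000019960) at 99263231 to 99267489 of chromosome 10, Dusp7 (ENSMUSG00000053716) at 106368632 to 106375724 of chromosome 9 and Dusp9 (ENSMUSG00000031383) at 73639419 to 73643514 of chromosome X. In the JNK and p38 group, Dusp8 (ENSMUSG00000037887) is at 142079490 to 142095843 of chromosome 7 on the minus strand, Dusp10 (ENSMUSG00000039384) at 184013302 to 184075636 of chromosome 1 on the plus strand and Dusp16 (ENSMUSG00000030203) at 134715468 to 134792625 of chromosome 6 on the minus strand. All 10 are protein-coding. Of the exonic bases of Dusp5, 547 (22.1%) are shared with an antisense gene, AC137853.2, and whether counting used strand is not given in the sources used here, so the level of Dusp5 is uncertain to that extent.

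Because Dusp1 was the member that passed the test for a Dex response, its promoter was read from RefSeq (GRCm38.p6) together with that of Dusp8, the only other of the 8 members found there with a complete cAMP response element (CRE). A promoter was taken as 250 bases before the start of transcription and 50 bases from it, and was found for 8 of the 10 members, not for Dusp4 or Dusp9. The 250 bases before the start are shown 5′ to 3′ on the strand of the gene, Dusp1 from chr17:26508473-26508722 (minus strand) and Dusp8 from chr7:142095285-142095534 (minus strand), with matches to the CRE letters TGACGTCA or to its first 5 bases, TGACG, in capitals.
Dusp1: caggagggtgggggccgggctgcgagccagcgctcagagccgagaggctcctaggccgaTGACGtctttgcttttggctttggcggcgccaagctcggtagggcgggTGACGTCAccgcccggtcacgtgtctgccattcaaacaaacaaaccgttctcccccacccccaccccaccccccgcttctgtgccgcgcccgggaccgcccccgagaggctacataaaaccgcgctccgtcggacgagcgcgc
Dusp8: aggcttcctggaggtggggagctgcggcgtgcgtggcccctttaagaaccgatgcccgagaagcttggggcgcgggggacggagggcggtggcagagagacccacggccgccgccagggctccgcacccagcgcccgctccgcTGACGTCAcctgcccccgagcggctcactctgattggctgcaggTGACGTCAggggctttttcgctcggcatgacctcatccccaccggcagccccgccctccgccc
The complete CRE, TGACGTCA, is the palindromic element bound by CREB-family factors. It stood at positions -143 to -136 of Dusp1 and at -107 to -100 and -63 to -56 of Dusp8, counted from the start of transcription. It was found on either strand in 2 of 8 member promoters and in 1.79% of 32851 promoters of the same length. The shorter TGACG, which lies within the complete element, was in 5 of 8 (Dusp1, Dusp2, Dusp5, Dusp8 and Dusp16) and in 20.8% of all promoters. The palindromic glucocorticoid response element, AGAACA and TGTTCT around 3 bases of any kind, was in 0 of 8 and in 0.00913% of all promoters, and AGAACA alone was in 0 of 8 and 19%. These are matches of letters within 300 bases and do not show whether a factor is bound there or elsewhere. The study's own quantitative PCR primers for Dusp1 mark another stretch of the same gene, 129 bases apart at their outer ends in the mature transcript.
Forward: gttgttggattgtcgctcctt
Reverse: ttgggcacgatatgctccag

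Per length of exon, the cytoplasmic ERK-selective enzymes Dusp7 and Dusp6 had the highest median levels in these fibroblasts, while Dusp9 of the same class was among the lowest. The median over 23 libraries was 9.41 RPKM (CPM per kilobase of exon) for Dusp7 and 6.84 RPKM for Dusp6. Then came Dusp4 with 5.12, Dusp1 with 3.88 and Dusp5 with 3.14 RPKM, all inducible nuclear enzymes. The exon length used for Dusp1 was 3311 bases, over all its annotated transcripts. Those that hold both qPCR primers are 1990 and 2313 bases long, so the place of Dusp1 depends on the length used. Which transcripts the cells used was not tested. Dusp10 followed with 2.03, Dusp16 with 1.97, Dusp9 with 1.02 and Dusp8 with 0.602 RPKM. Dusp2, known chiefly from lymphocytes, was last with 0.0813 RPKM and had 0 to 9 reads per library, 70 in all, with at most 0.479 CPM.
The order was firm at some steps and loose at others. Dusp8 was above Dusp2 in 23 of 23 libraries, Dusp6 above Dusp4 in 21, Dusp16 above Dusp9 in 21 and Dusp5 above Dusp10 in 20. Dusp7 exceeded Dusp6 in 18 libraries and Dusp9 exceeded Dusp8 in 17, whereas Dusp4 exceeded Dusp1 in 16, Dusp1 exceeded Dusp5 in 14 and Dusp10 exceeded Dusp16 in 14, so these last neighbours were not separated beyond their spread. The members also differed in how steady they were. From the lowest to the highest library the CPM of Dusp7 changed 1.63-fold, while that of Dusp16 changed 6.56-fold and that of Dusp5 8.53-fold. The remaining 6 tested members spanned 3.63-fold to 5.22-fold.

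**Figure D1:**
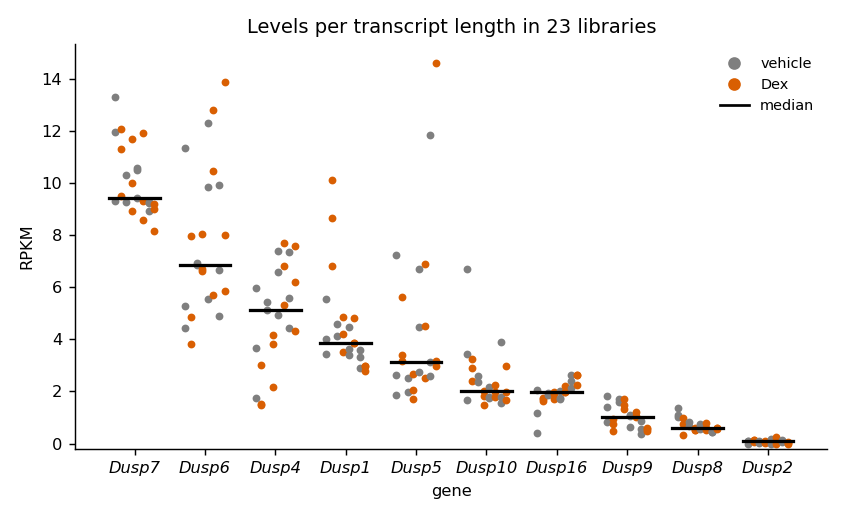
Levels of the 10 members in RPKM, with a point for each of the 23 libraries and a bar at the median. Dusp7 is highest with a median of 9.41 RPKM and Dusp2 lowest with 0.0813 RPKM.

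Dusp1 was higher after 10 nM Dex in GRwt/wt MEFs and in no mutant genotype did it pass the test. In GRwt/wt, vehicle libraries had 18.4, 11.4 and 13.2 CPM, and Dex libraries had 33.5, 28.7 and 22.5 CPM. The lowest Dex library was thus above the highest vehicle library. The group means were 14.3 ± 3.60 CPM (SD, n = 3) and 28.3 ± 5.50 CPM (SD, n = 3), a log2 fold change (LFC) of 0.98 (SE 0.19, 95% interval 0.58 to 1.38), or 1.97-fold, with an adjusted p of 0.0335. This passed the adjusted p of 0.05, as did 0.222% of the 15748 genes tested, 0.203% of them higher. It missed the further requirement of an absolute LFC of at least 1 that makes a call here, which 0.159% of genes met. For scale, the known GR target genes Fkbp5 and Tsc22d3 had an LFC of 3.49 (adjusted p = 2.67e-06) and 1.92 (adjusted p = 0.00272) in the same comparison. The numbered Dex and vehicle libraries of GRwt/wt differed 1.82-fold, 2.51-fold and 1.70-fold. In this genotype, though, the numbers did not reliably pair libraries (correlation of deviations -0.0834 to 0.494). Leaving out the 2 vehicle libraries that stood apart gave an LFC of 1.29 (adjusted p = 0.0401), where the 1 vehicle library left was assumed to vary like the other groups, and the adjusted p rose above 0.05 without Dex replicate 1 (0.0918), the library with the raised muscle marker sum and the highest Dusp1, or without Dex replicate 2 (0.121). It also rose above 0.05 with upper-quartile scaling (0.116), without the filter on low counts (0.0753) and when the 6 GRwt/wt libraries were fitted alone (0.97).

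In the receptor mutants the vehicle and Dex libraries overlapped or lay close together. GRD/D had 15.2 and 13.7 CPM in vehicle and 16.1, 13.9 and 11.6 CPM under Dex, an LFC of -0.06 (SE 0.21, 95% interval -0.50 to 0.39, adjusted p = 1). GRL/L had 12.0, 11.2 and 14.8 CPM in vehicle and 12.8, 12.8 and 15.95 CPM under Dex, an LFC of 0.12 (SE 0.19, 95% interval -0.27 to 0.52, adjusted p = 1). GRD+L/D+L had 10.98, 11.8 and 9.66 CPM in vehicle and 9.90, 9.89 and 9.23 CPM under Dex, an LFC of -0.16 (SE 0.19, 95% interval -0.56 to 0.24, adjusted p = 1). Dex and vehicle values overlapped in all 3 mutants. Each interval lay below the GRwt/wt estimate of 0.98, which is not a test of a difference between responses. In GRL/L the Dex library of each number was slightly higher than its vehicle library, by 1.06-fold to 1.14-fold, and in GRD+L/D+L slightly lower, at 0.835 to 0.956 of it.

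**Figure D2:**
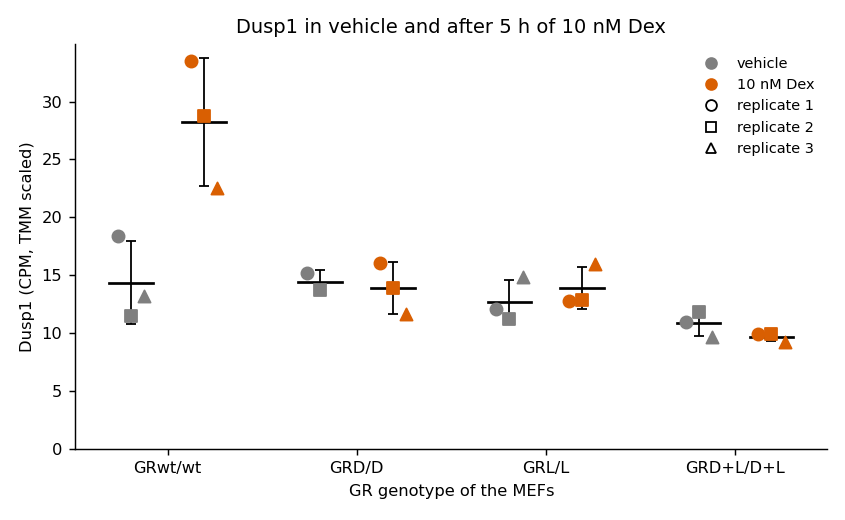
Dusp1 in CPM in each of the 23 libraries, vehicle in grey and Dex in orange, with replicate 1 as a circle, 2 as a square and 3 as a triangle, and a black bar for the mean ± SD of the group. The 3 GRwt/wt Dex libraries, at 22.5 to 33.5 CPM, are above the other 20.

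The difference between genotypes was tested directly as the Dex response of each mutant minus that of GRwt/wt. For Dusp1 the difference for GRD/D was -1.04 (SE 0.28, adjusted p = 0.688). The GRL/L difference was -0.85 (SE 0.27, adjusted p = 0.785). The GRD+L/D+L difference was -1.14 (SE 0.27, adjusted p = 0.431). None passed after adjustment over all genes by edgeR, and of the 9 members 1, 2 and 2 had an unadjusted p under 0.05 in the 3 tests, as had 1119, 990 and 796 of the 15748 genes. Over all genes 0%, 0.0254% and 0.0254% were called. DESeq2 called the Dusp1 difference of GRD/D (LFC -1.08, adjusted p = 0.0463) and that of GRD+L/D+L (LFC -1.17, adjusted p = 0.00893) but not that of GRL/L, and it called no other member. DESeq2 called 0.102%, 0.097% and 0.116% of all genes in GRD/D, GRL/L and the double mutant. Without GRwt/wt vehicle replicate 1, edgeR also called the Dusp1 difference of GRD+L/D+L (LFC -1.36, adjusted p = 0.0464), where 0.051% of genes were called.

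Set against GRwt/wt at the same treatment, Dusp1 separated the genotypes under Dex but not in vehicle. In vehicle the LFC was 0.01 (SE 0.21, adjusted p = 0.985) for GRD/D, -0.17 (SE 0.19, adjusted p = 0.515) for GRL/L and -0.40 (SE 0.19, adjusted p = 0.136) for GRD+L/D+L. Under Dex it was called lower in all 3 mutants. For GRD/D the LFC was -1.03 (SE 0.19, adjusted p = 0.0275, 2.04-fold lower), where 0.241% of all genes were called lower. For GRL/L it was also -1.03 (SE 0.19, adjusted p = 0.00524, 2.04-fold lower), where 1.23% of genes were. For GRD+L/D+L it was -1.55 (SE 0.19, adjusted p = 0.000319, 2.92-fold lower), where 1.87% were. These 3 comparisons share the GRwt/wt Dex libraries. The call in GRD+L/D+L held under every alternative, while that in GRD/D was lost when any GRD/D Dex library or GRwt/wt Dex replicate 1 or 2 was left out, with upper-quartile scaling (adjusted p = 0.0539), without the filter on low counts (0.0612) and when only the compared genotypes were fitted (0.221), with an LFC of -1.17 to -0.89 over omissions. The GRL/L call was lost without GRL/L Dex replicate 1 (LFC -0.97) or 2 (-0.97) or GRwt/wt Dex replicate 1 (-0.89), where the adjusted p stayed at 0.0264 to 0.037, and when only the compared genotypes were fitted (adjusted p = 0.0669).

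Neither of the other tested nuclear enzymes passed the test for a Dex response. Dusp4, which acts on ERK and JNK, had 10.0, 4.78 and 16.4 CPM in GRwt/wt vehicle and 4.04, 8.24 and 4.12 CPM under Dex. The LFC of -0.93 was the lowest in the family, the groups overlapped, and the estimate turned to 0.18 without the 2 vehicle libraries that stood apart. In GRD/D, Dusp4 had 14.9 and 14.0 CPM in vehicle and 11.4, 5.91 and 10.5 CPM under Dex, lower in every Dex library, but it did not pass the test. GRL/L libraries had 18.05, 13.5 and 20.2 CPM in vehicle and 18.6, 14.5 and 21.1 CPM under Dex. GRD+L/D+L libraries had 12.2, 15.3 and 20.1 CPM in vehicle and 17.0, 11.8 and 20.8 CPM under Dex. Dex and vehicle values overlapped in both of these genotypes, and under Dex every library was above all 3 of GRwt/wt. Dusp4 was called higher than in GRwt/wt under Dex in GRL/L, with an LFC of 1.72 (SE 0.39, adjusted p = 0.0161, 3.30-fold), where 1.37% of all genes were called higher. It was called higher in GRD+L/D+L as well, with an LFC of 1.59 (SE 0.39, adjusted p = 0.0292, 3.01-fold), where 0.876% were. Both calls were lost without GRwt/wt Dex replicate 1 or 3 and when only the compared genotypes were fitted (adjusted p = 0.0922 and 0.236). The GRL/L call was also lost without GRL/L Dex replicate 1 or 3 and the GRD+L/D+L call without GRD+L/D+L Dex replicate 2 or 3, with the LFC staying between 1.40 and 2.15 over all single omissions.

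Dusp5, a nuclear phosphatase specific for ERK, varied more between cultures than between groups. Its lowest library had 4.23 CPM (GRD/D Dex replicate 1) and its highest 36.1 CPM (GRD+L/D+L Dex replicate 1). GRD+L/D+L replicate 1 was high with and without Dex (29.3 and 36.1 CPM), whereas replicates 2 and 3 of that genotype had 6.42 to 7.82 CPM. Under Dex the 3 GRD/D libraries, at 4.23 to 6.57 CPM, were all below the 3 of GRwt/wt, at 7.80 to 13.9 CPM, a difference that did not pass the test. Dusp5 passed no test in any comparison.

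Dusp6, a cytoplasmic phosphatase that dephosphorylates ERK and is itself an ERK target gene, also passed no test. Its lowest GRwt/wt library had 11.9 CPM and its highest 35.5 CPM, and the latter was vehicle replicate 3. GRD/D libraries lay between 20.7 and 25.2 CPM. GRL/L replicate 2 had 17.4 CPM in vehicle and 17.9 CPM under Dex, while replicates 1 and 3 had 30.8 to 40.1 CPM, so the spread within GRL/L lay between cultures and not between treatments. In GRD+L/D+L replicate 1 was highest in vehicle (31.1 CPM) and under Dex (43.5 CPM), and each Dex library was above the vehicle library of its number, by 1.199-fold to 1.40-fold.

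Dusp7, a further ERK-selective cytoplasmic enzyme, was the steadiest member, with 27.4 to 44.6 CPM over all libraries. Its group means went from 29.5 ± 1.84 CPM (SD, n = 3) in GRD+L/D+L Dex to 38.7 ± 6.81 CPM (SD, n = 3) in GRwt/wt vehicle. All GRD+L/D+L libraries, at 27.4 to 31.1 CPM, were below all GRwt/wt libraries of the same treatment, by a margin that did not pass the test.

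Dusp9, best known from placenta and from the control of ERK in pluripotent cells, was low throughout. GRwt/wt vehicle libraries had 4.96, 2.20 and 3.81 CPM and GRwt/wt Dex libraries 2.53, 1.31 and 2.00 CPM. GRD+L/D+L vehicle libraries had 2.33, 1.05 and 1.47 CPM, 1 of which was above the lowest GRwt/wt vehicle library. The LFC between these genotypes in vehicle was -1.17 (SE 0.33, adjusted p = 0.0203, 2.26-fold lower), a call that was lost without GRwt/wt vehicle replicate 1 (LFC -0.88, adjusted p = 0.0675) and fell to an LFC of -0.46 (adjusted p = 0.471) without both libraries that stood apart, which left 1 vehicle library. It was also lost without GRD+L/D+L vehicle replicate 2 (adjusted p = 0.0947) or 3 (0.0709), without the filter on low counts (0.0618) and when only the compared genotypes were fitted (0.15). Under Dex, GRD/D libraries had 3.59 to 4.67 CPM, all above GRwt/wt, with an LFC of 1.07 that did not pass (adjusted p = 0.19). It was called by DESeq2 (LFC 1.08, adjusted p = 0.0403) and without the 2 GRwt/wt vehicle libraries that stood apart (LFC 1.06, adjusted p = 0.0461).

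Among the enzymes that prefer JNK and p38, Dusp8 was the lowest of the tested members per length and passed the test in 1 comparison. GRwt/wt vehicle libraries had 6.56, 4.99 and 5.35 CPM, higher than every other library of the series. Under Dex the GRwt/wt libraries had 3.59, 1.59 and 4.87 CPM, all below vehicle, but the LFC did not pass the test. GRD+L/D+L vehicle libraries had 2.12, 2.42 and 2.18 CPM, and against GRwt/wt vehicle the LFC was -1.33 (SE 0.29, adjusted p = 0.00542, 2.51-fold lower). This call was lost when only the compared genotypes were fitted (adjusted p = 0.0863). In GRD+L/D+L the 3 Dex libraries, at 2.70 to 2.99 CPM, were above the 3 vehicle libraries, and in GRD/D the 3 Dex libraries, at 2.57 to 2.93 CPM, were below the 2 vehicle libraries of 3.30 and 4.03 CPM, neither of which passed the test. GRL/L vehicle libraries had 3.72, 2.74 and 3.31 CPM, also below all of GRwt/wt vehicle, with an adjusted p of 0.056.

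Dusp10 (MKP-5), which acts on JNK and p38, had its widest spread in GRwt/wt vehicle, with 20.4, 10.4 and 5.12 CPM, replicate 1 being the highest of the series. The GRwt/wt Dex libraries had 9.86, 7.35 and 8.86 CPM and were above all GRL/L Dex libraries, at 5.44 to 6.86 CPM, and above all GRD/D Dex libraries, at 4.53 to 6.18 CPM. Neither difference passed the test. Within GRL/L the 6 libraries stayed between 5.28 and 6.86 CPM. In vehicle, the LFC of GRL/L against GRwt/wt was -1.06 with an adjusted p of 0.0586. Without GRwt/wt vehicle replicate 1 it was -0.43 (adjusted p = 0.394), and without replicate 3 it was -1.37 (adjusted p = 0.00621).

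Dusp16 (MKP-7), a JNK-directed enzyme that shuttles between nucleus and cytoplasm, was the only member to rise in a mutant in vehicle. GRwt/wt vehicle libraries had 3.14, 9.29 and 16.2 CPM and GRwt/wt Dex libraries 12.8, 13.7 and 13.4 CPM. GRD+L/D+L had 18.8, 20.6 and 16.5 CPM in vehicle and 20.6, 20.6 and 17.4 CPM under Dex, all above every GRwt/wt library. The LFC in vehicle was 0.96 (SE 0.33, adjusted p = 0.0469, 1.95-fold), past the adjusted p, as were 20.4% of all genes (7.14% higher), but short of an LFC of 1. The lowest GRwt/wt value came from the vehicle library with the low correlation, and without it the LFC was 0.56 (adjusted p = 0.0317). Without GRwt/wt vehicle replicate 3 the LFC was 1.62 (adjusted p = 0.000951), and without any other single library of the 2 genotypes the adjusted p was 0.0547 to 0.127. It was 0.0675 without the filter and 0.233 when only the compared genotypes were fitted. Under Dex the LFC between the same genotypes had the same sign and did not pass. GRL/L libraries had 13.2 to 17.3 CPM and GRD/D libraries 13.2 to 15.4 CPM.

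**Figure D3:**
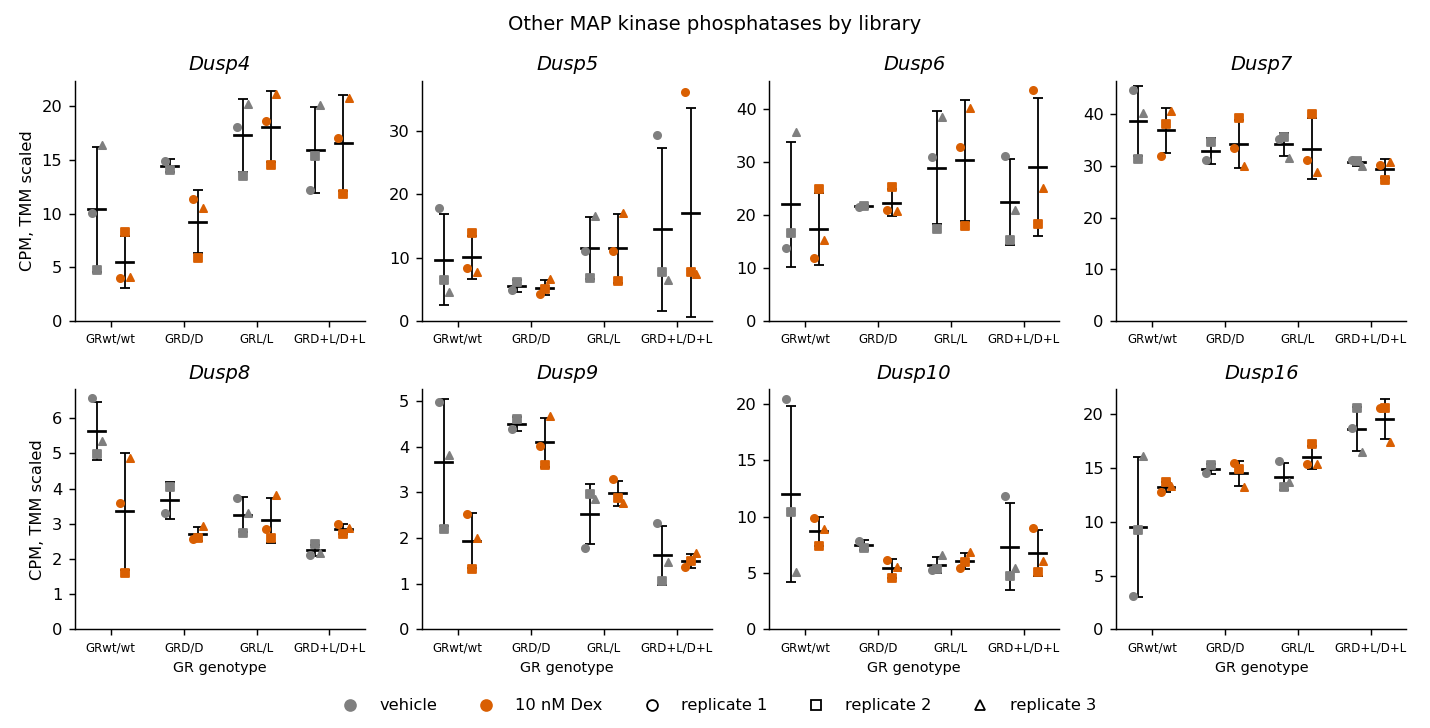
The 8 other tested members in CPM in each library, a panel per gene with its own axis, vehicle in grey and Dex in orange, replicate 1 as a circle, 2 as a square and 3 as a triangle, with a black bar for the mean ± SD. Dusp7 stays between 27.4 and 44.6 CPM, and Dusp5 reaches 36.1 CPM in GRD+L/D+L Dex replicate 1 alone.

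Across the family, Dex moved Dusp1 and no other member past the test. In GRwt/wt the LFC of the 9 members ran from -0.93 (Dusp4) to 0.98 (Dusp1) with a median of -0.34, beside a median of -0.01 over all genes. The LFC was above 0 for 3 members and below 0 for 6, the 6 being Dusp4, Dusp6, Dusp7, Dusp8, Dusp9 and Dusp10. The sign turned under at least 1 omission of libraries for Dusp4, Dusp5, Dusp6, Dusp7 and Dusp10. Of the 9 members, 4 had an unadjusted p under 0.05, as had 2454 of the 15748 genes, and 2 had groups that did not overlap (Dusp1 higher, Dusp8 lower), as had 9.46% of all genes. In GRD/D the LFC ran from -0.64 to 0.06, in GRL/L from -0.07 to 0.23 and in GRD+L/D+L from -0.16 to 0.37. None of the 9 passed in these genotypes by edgeR, none had an unadjusted p under 0.05 (as had 154, 43 and 54 of all genes), and 0% of all genes were called by edgeR. DESeq2 called no member either, and 0.00681%, 0% and 0.017% of all genes. Groups did not overlap for 3 members of GRD/D (Dusp4, Dusp8 and Dusp10, all lower, against 21.3% of all genes in a comparison of 3 with 2 libraries), for 0 in GRL/L (4.84% of genes) and for 1 in GRD+L/D+L (Dusp8, 3.37% of genes).

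**Figure D4:**
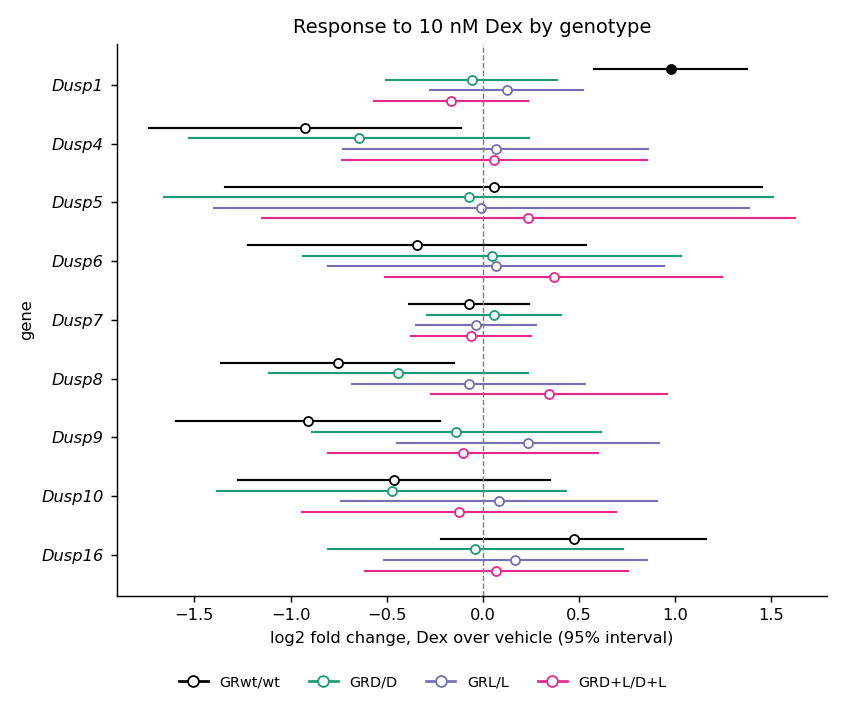
Log2 fold change of Dex against vehicle for the 9 tested members in each genotype, with points for the estimate and lines for the 95% interval, filled where the adjusted p was at most 0.05. Dusp1 in GRwt/wt, at 0.98, is the only filled point.

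Against GRwt/wt in vehicle, the mutants differed in how many members passed. No member was called in GRD/D, where 0.00635% of all genes were called, 0 members and 1946 of the 15748 genes had an unadjusted p under 0.05 in edgeR, and DESeq2 called no member and 0.206% of genes. No member was called in GRL/L, where 7.78% of genes were, 2 members (Dusp8 and Dusp10) had an unadjusted p under 0.05 as had 5841 of the 15748 genes, and DESeq2 called 1, Dusp10, and 9.08% of genes. In GRD+L/D+L 2 of 9 were called, Dusp8 and Dusp9, both lower, where 4.71% of genes were called lower and 8.32% in either direction. Groups did not overlap for Dusp8 in GRD/D (23.2% of all genes), for Dusp8 in GRL/L (38% of genes) and for Dusp7, Dusp8 and Dusp16 in GRD+L/D+L (27.4% of genes). These counts rest on the GRwt/wt vehicle libraries. Without GRwt/wt vehicle replicate 3, the library rich in macrophage markers, the members called were 1 in GRD/D (Dusp16), 3 in GRL/L (Dusp4, Dusp10 and Dusp16) and 5 in GRD+L/D+L (Dusp4, Dusp8, Dusp9, Dusp10 and Dusp16). Over all genes the shares called rose as well under this omission, to 2.4%, 17.1% and 12.8%.

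Under Dex, Dusp1 was called lower than in GRwt/wt in all 3 mutants, and Dusp4 higher in GRL/L and also GRD+L/D+L. The LFC of Dusp4 in GRD/D was 0.75 (95% interval -0.06 to 1.57, adjusted p = 0.503), and the mutants were not tested against each other. One of 9 members was called in GRD/D (Dusp1), against 0.254% of all genes, and 2 of 9 in GRL/L as well as in GRD+L/D+L (Dusp1 and Dusp4), against 2.59% and 2.75% of genes. Groups did not overlap for 4 members in GRD/D (Dusp1, Dusp5 and Dusp10 lower, Dusp9 higher), 5 in GRL/L (Dusp1 and Dusp10 lower, Dusp4, Dusp9 and Dusp16 higher) and 4 in GRD+L/D+L (Dusp1 and Dusp7 lower, Dusp4 and Dusp16 higher). The same was true of 23.8%, 42.7% and 30% of all genes. In vehicle the LFC of Dusp4 was 0.73 for GRL/L (adjusted p = 0.172) and 0.61 for GRD+L/D+L (adjusted p = 0.258). Without both GRwt/wt vehicle libraries that stood apart these became 1.83 (adjusted p = 0.0136) and 1.71 (adjusted p = 0.0221), with the remaining vehicle library assumed to vary like the other groups.

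**Figure D5:**
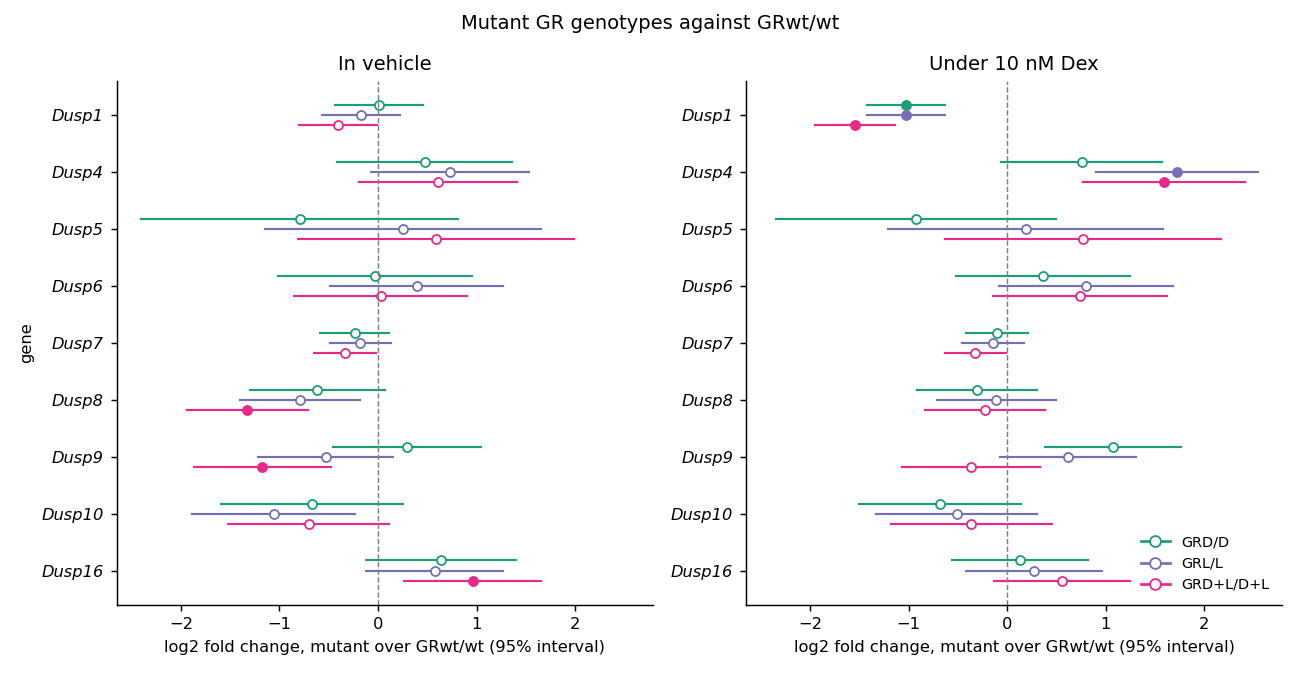
Log2 fold change of each mutant against GRwt/wt for the 9 tested members, in vehicle and under Dex, with points for the estimate and lines for the 95% interval, filled where the adjusted p was at most 0.05. Under Dex, Dusp1 is filled below 0 in all 3 mutants and Dusp4 above 0 in GRD+L/D+L and GRL/L.

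The MAP kinase pathway around the phosphatases was read from 5 lists of genes, of which 53 were tested in all. With Dex, none of the 53 passed the adjusted p in edgeR or DESeq2 in any genotype, and 9, 1, 0 and 0 had an unadjusted p under 0.05 in GRwt/wt, in GRD/D, in GRL/L and then in the double mutant, beside 2454, 154, 43 and 54 of the 15748 genes. In GRD/D against GRwt/wt none passed in edgeR at either treatment, with 3 (vehicle) and 6 (Dex) at an unadjusted p under 0.05, beside 1946 and 1750 of all genes, and 0 and 1 passing in DESeq2. In GRD+L/D+L and GRL/L most of the tested Sprouty and Spred genes, feedback inhibitors that act above ERK, were higher than in GRwt/wt.

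Of the 6 Sprouty and Spred genes tested, 4 rose in GRL/L vehicle, with a list median LFC of 1.12 beside -0.05 over all genes, of which 8.83% rose. Spry4 had the largest LFC there, 1.49 (SE 0.26, adjusted p = 0.00105), and went from 8.53 to 23.9 CPM. Again 4 rose in GRD+L/D+L vehicle, with a list median of 0.97 and 7.14% of all genes rising, and Spry2 had the largest LFC, 1.14 (SE 0.33, adjusted p = 0.0233). Under Dex 5 rose in GRL/L (list median 1.47 beside -0.02), as did 2.57% of all genes, and 4 in GRD+L/D+L (list median 1.27), as did 1.92%. Spry1 had the largest LFC in both, 1.99 (SE 0.49, adjusted p = 0.0252) and 2.00 (SE 0.49, adjusted p = 0.0292). Spred3 followed in GRD+L/D+L with 1.41 (SE 0.19, adjusted p = 0.000791). Spry4 lies on the same chromosome as Nr3c1, the gene that carries the mutations. The counts held at 4 to 6 without both GRwt/wt vehicle libraries that stood apart, but under Dex the count in GRL/L fell to 2 without GRL/L Dex replicate 1, and with only the compared genotypes in the model it was 1 in GRD+L/D+L under Dex and 0 in GRD+L/D+L vehicle.

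The ERK-responsive genes are transcription factors and other rapid targets of the pathway. Of 16 tested, 5 rose in GRL/L vehicle, led by Etv1 (LFC 1.86, SE 0.64, adjusted p = 0.0442) and Egr3 (LFC 1.53, SE 0.40, adjusted p = 0.0116). There Etv1 passed in 8 of 18 alternatives. Egr3 passed in 16, and not without both GRwt/wt vehicle libraries that stood apart. Only Egr3 rose in GRD+L/D+L vehicle, with an LFC of 1.89 (SE 0.41, adjusted p = 0.00466). Under Dex 2 rose in GRL/L, Etv4 and Etv5, and 2 in GRD+L/D+L, Egr3 and Etv4. The same was true of 8.83% and 7.14% of all genes in vehicle and of 2.57% and 1.92% under Dex, so 1 of 16 in GRD+L/D+L vehicle was no more than the background. List medians were 0.47 to 0.55 in these 4 comparisons. The count of 5 in GRL/L vehicle fell to 0 without GRL/L vehicle replicate 3. The other 3 counts of risen genes fell to 0 when only the compared genotypes were fitted. Dusp6, which responds to ERK as well, had an LFC of 0.03 to 0.80 in the same 4 comparisons and passed in none.

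Few of the kinases themselves passed in edgeR, and those that did were lower. Of 11 MAP kinases tested, Mapk3 (ERK1) fell in GRL/L vehicle with an LFC of -0.86 (SE 0.19, adjusted p = 0.00368), and Mapk13 (-1.68, SE 0.56, adjusted p = 0.0418) and Mapk3 (-0.60, SE 0.19, adjusted p = 0.0324) fell in GRD+L/D+L vehicle. Of 7 MAP kinase kinases, Map2k1, Map2k2 and Map2k3 fell in GRL/L vehicle (LFC -0.70, -0.77 and -0.61), and Map2k1 fell in GRD+L/D+L vehicle (-0.43). Among 13 atypical dual-specificity phosphatases, small relatives without the kinase-binding domain of the family, 3 fell in GRL/L vehicle and 3 fell and 2 rose in GRD+L/D+L vehicle. In the latter Styxl1 had the largest absolute LFC, -1.65 (adjusted p = 0.0183), at 1.29 CPM or less in every library. Dusp23 was 2.35-fold lower there (LFC -1.23, SE 0.18, adjusted p = 0.000518). The counts of kinases and kinase kinases that fell in GRD+L/D+L vehicle dropped to 0 under some alternatives, among them the fit of the compared genotypes alone. Over all genes, 14.2% fell in GRL/L vehicle and 13.3% in GRD+L/D+L vehicle by the same adjusted p, so most of these counts lay near the background. Under Dex none of the 18 kinases of both lists passed in edgeR against GRwt/wt, with 3, 4 and 4 at an unadjusted p under 0.05 in GRD/D, GRL/L and the double mutant, beside 1750, 3579 and 3291 of the 15748 genes, and 0, 1 and 2 passing in DESeq2.

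Members varied together across the 23 libraries in a few pairs. Dusp4 and Dusp6 had a Spearman rho of 0.647, and 0.436 after the mean of each group was removed. Dusp5 and Dusp10 had 0.397, and 0.641 on the deviations from the group means, so their likeness lay within groups. Dusp1 and Dusp7 had 0.566, which became -0.149 on the deviations. Dusp9 and Dusp16 ran against each other, at -0.468 and -0.579. The 23 points share genotypes, cultures and the library that stood apart, so these values describe the data only. Of 13240 genes with a mean of at least 1 CPM, those with a pattern over the 23 libraries most like Dusp1 were Dpep1 (Spearman rho 0.829), Serping1 (0.817), Myo1h (0.798), Pla2g15 (0.794) and Raver2 (0.788).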

How the data were processed

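TruSeq libraries were aligned by the authors to GRCm38 with HISAT2 2.1.0. The deposited file holds raw counts per Ensembl gene from featureCounts 2.0.0, and the authors tested them with DESeq2. Strand setting and annotation release are not given in the sources used here. Of 55487 gene IDs, 55141 matched a symbol. Counts of all 23 libraries were fitted in 1 model of 8 groups with edgeR 4.0.16 in R 4.3.3 (TMM scaling, filterByExpr, quasi-likelihood test, prior count 0.125), which tested 15748 genes in each of 13 comparisons. P-values were adjusted by Benjamini-Hochberg over all genes tested. A gene was called if its absolute LFC was 1 or more and its adjusted p 0.05 or less, and "rose", "fell" and "passed" refer to the adjusted p. SE is the absolute LFC divided by the square root of F. CPM is scaled to the TMM effective library size (total count times scaling factor) and RPKM uses exon lengths of GENCODE M21. The fit was checked on simulated data. DESeq2 1.42.0, other scalings, no filter, the compared genotypes alone and omissions of libraries were alternatives.

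Statistics are given for Dusp1 in every comparison, for other members at an adjusted p of at most 0.05 and for at most 3 genes per pathway list, those with the largest absolute LFC among those that passed. Statistics of other members (Dusp4, Dusp6, Dusp8, Dusp9 and Dusp10) were added after their values were seen. Members and lists were chosen with earlier results of these data known. No library was a copy of another. Same-numbered vehicle and Dex libraries deviated together from their group means in GRL/L (correlation 0.214 to 0.513) and GRD+L/D+L (0.457 to 0.804) but not in GRwt/wt (-0.0834 to 0.494) or GRD/D (-0.133 to 0.197). The model had no replicate block.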

Additional observations from a re-analysis of the deposited data

How the results depend on the processing

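Of 223 alternative counts of members called, 182 stayed within 1.5 times the reported one, and of 300 alternative LFC values of named members 254 kept sign and side of the threshold and 8 changed sign. With Dex in GRwt/wt, 0 members were called in the reported fit, but 1 (Dusp1) by adjusted p alone, with DESeq2 size factors (LFC 1.01), by DESeq2 (1.01, where 1.77% of all genes were called) or leaving out vehicle replicates 1 and 3 (1.29), and 0 to 1 with single libraries left out (LFC 0.82 to 1.19). Its adjusted p ranged from 2.13e-05 (DESeq2) to 0.97 when only GRwt/wt was fitted, and was 0.116 with upper-quartile scaling and 0.0753 without the filter. Dusp1 with Dex in GRD/D turned to 0.053 with the replicate block and ranged from -0.18 to 0.055 with single libraries left out. The replicate block, where the numbers paired libraries in the genotypes GRL/L and GRD+L/D+L alone, gave Dusp1 in GRwt/wt an LFC of 0.99 (adjusted p = 0.00635) and changed no call. For the difference in Dex response, DESeq2 called 1 member, Dusp1, in GRD/D and the same 1 in GRD+L/D+L, and omissions called 0 to 1 in GRD+L/D+L (Dusp1 without GRwt/wt vehicle replicate 1).

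In vehicle, the members called in GRD/D ranged from 0 to 1 over omissions (0% to 2.4% of all genes). The LFC of Dusp1 there was -0.10 with upper-quartile scaling and -0.16 to 0.23 over omissions. In GRL/L 1 was called with upper-quartile scaling (9.53% of all genes), 1 with DESeq2 (9.08%), 1 without both GRwt/wt vehicle libraries (8.11%) and 0 to 3 over omissions (5.04% to 17.1%), and the LFC of Dusp1 was 0.13 without both and -0.33 to 0.044 over omissions. In GRD+L/D+L 1 was called without the filter (3.49% of all genes), 0 with only the compared genotypes fitted (0.754%) and 1 to 5 over omissions (3.73% to 12.8%). Under Dex, the members called in GRD/D were 0 with upper-quartile scaling (0.133% of all genes), without the filter (0.0952%) and with only the compared genotypes (0.0263%). They were 2 with DESeq2 (1.79%) and 0 to 1 over omissions (0.0318% to 1.95%). In GRL/L they were 0 with only the compared genotypes (0.696% of all genes) and 0 to 2 over omissions (0.942% to 6.07%). In GRD+L/D+L they were 1 (0.102%) and 1 to 2 (0.598% to 6.11%). Upper-quartile scaling shifted the median of all genes by -0.12 for GRL/L vehicle, and for GRD+L/D+L vehicle by -0.15. The cause of these changes was not tested.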
